A study of Mus musculus with 2 samples.

Results

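The heat shock chaperones described here are 10 genes, Hspa1a, Hspa1b, Dnajb1, Hsph1, Hsp90aa1, Hspa8, Hsp90ab1, Hspd1, Hspe1 and Hspa5, taken by symbol from the 27998 genes of each library, and each symbol had 1 row. They were read in 2 droplet single-cell RNA libraries of sorted liver cells from wild-type C57BL/6 mice aged 7 to 10 weeks. One gate, called LSM, took CD45+Lin-Sca-1+Mac-1+ cells and the other took CD45+Lin-CD122+CD49a+ cells, named CD122+CD49a+ below. All cells were thus sorted as positive for the blood cell marker CD45 and negative for lineage markers. Cells of both gates were stained with trypan blue for viability before loading. There was 1 library per gate, and the labels do not say how many mice each drew on, so differences below compare these libraries and carry no p-value.

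Chaperones help proteins fold and hold them when they unfold. Heat, toxic stress and the handling of tissue are known to release the transcription factor HSF1, which raises transcription of the inducible HSP70 genes, while related genes such as Hspa8 and Hsp90ab1 are made at all times in nearly every cell. Immediate early genes such as Fos and Jun answer many stimuli through other factors, and mitochondria and the endoplasmic reticulum have chaperones under partly separate control.

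Of the 10 genes, 4 were grouped as inducible: Hspa1a and Hspa1b, neighbouring copies that encode nearly the same HSP70, Dnajb1, an HSP40 that delivers substrates to HSP70, and Hsph1, an HSP110 that exchanges its nucleotide. The constitutive group held 2, Hspa8 (the cognate HSP70) and Hsp90ab1 (HSP90 beta). Hsp90aa1 (HSP90 alpha, with both basal and inducible transcription), the mitochondrial Hspd1 (HSP60) and Hspe1 (HSP10), and Hspa5 (BiP of the endoplasmic reticulum) are given apart.

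After barcodes with fewer than 500 detected genes were left out, the LSM library held 3074 cells and 16187182 unique molecular identifiers (UMIs, each standing for 1 captured RNA molecule), with a median of 5100 per cell. The CD122+CD49a+ library held 1257 cells and 2351659 UMIs, with a median of 1461. The filter removed 59 barcodes (1.88%) and 398 (24.0%), and the median mitochondrial share was 1.37% and 2.79%. The libraries shared 3 barcodes, of which 2 were kept. Levels are summed UMIs per 1000000 UMIs of the same cells (CPM), and 95% intervals in parentheses cover counting error only, so they can be too narrow for UMIs that clump in a few cells.

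Cells were put into classes by marker UMIs, with at least 3 markers of the class needed. In the LSM library these were 291 progenitor-like, 167 conventional dendritic cell 1-like (cDC1-like), 445 cDC2-like, 194 mature dendritic cell-like, 316 plasmacytoid dendritic cell-like, 346 nonclassical monocyte-like, 116 basophil and mast cell-like, 83 plasma cell-like and 107 lymphocyte-like cells (T and innate lymphocytes). A further 41 cells met the Kupffer cell and macrophage list, but all 41 did so with C1qa, C1qb and C1qc, 29 had no other marker of the list, and Clec4f, which defines Kupffer cells, had a UMI in 24.4%, so they are called the C1q class. In the CD122+CD49a+ library 747 cells (59.4%) were lymphocyte-like, 104 cDC1-like, 92 cDC2-like and 48 nonclassical monocyte-like, and no other class reached 30 cells. No class was given to 845 LSM cells (27.5%) and 239 CD122+CD49a+ cells (19.0%). CD3 transcripts were common in lymphocyte-like cells. Cd3d was found in 72.0% of LSM and 77.0% of CD122+CD49a+ ones, and Cd3e in 39.3% and 56.4%. Markers of B cells, hepatocytes and erythroid cells were low. In the LSM and CD122+CD49a+ libraries the summed level was 92.4 and 11.1 CPM for 5 B cell genes, 2.35 and 11.1 CPM for 5 hepatocyte genes and 12.5 and 4.25 CPM for 5 erythroid genes.

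Promoter windows from RefSeq (build GRCm38.p6, 250 bases before to 50 after an annotated start) were found for 7 of the 10 genes. They are shown as a description, and no link between these windows and the values below was tested. Each is written 5′ to 3′ on the gene's strand, with capitals marking a match to a searched motif. The first motif is a pair of inverted heat shock units, GAANNTTC or TTCNNGAA, of which runs of alternating units bind HSF1, and the other is the endoplasmic reticulum stress element, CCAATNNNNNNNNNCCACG. Both strands were searched, and capitals can join overlapping matches.
Hspa1a (chr17:34972107-34972406, minus strand): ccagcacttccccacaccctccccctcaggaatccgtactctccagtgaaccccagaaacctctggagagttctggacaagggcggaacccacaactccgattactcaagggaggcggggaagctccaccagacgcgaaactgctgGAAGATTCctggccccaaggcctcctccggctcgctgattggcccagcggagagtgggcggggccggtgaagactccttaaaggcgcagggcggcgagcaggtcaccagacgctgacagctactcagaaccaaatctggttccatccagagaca
Hsph1 (chr5:149636287-149636586, minus strand): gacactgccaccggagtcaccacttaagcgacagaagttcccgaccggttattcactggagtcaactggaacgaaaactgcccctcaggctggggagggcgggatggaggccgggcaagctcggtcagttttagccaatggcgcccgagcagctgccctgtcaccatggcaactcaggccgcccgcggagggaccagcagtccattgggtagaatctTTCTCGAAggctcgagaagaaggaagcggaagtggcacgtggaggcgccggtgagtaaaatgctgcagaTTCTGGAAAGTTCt
Hspe1 (chr1:55087898-55088197, plus strand): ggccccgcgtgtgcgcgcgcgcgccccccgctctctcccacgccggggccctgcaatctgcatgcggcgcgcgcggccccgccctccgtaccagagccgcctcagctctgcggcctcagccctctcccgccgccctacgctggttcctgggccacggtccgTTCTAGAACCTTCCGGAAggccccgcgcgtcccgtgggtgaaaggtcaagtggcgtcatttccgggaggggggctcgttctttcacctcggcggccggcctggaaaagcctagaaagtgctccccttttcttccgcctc
Hspa5 (chr2:34771840-34772139, plus strand): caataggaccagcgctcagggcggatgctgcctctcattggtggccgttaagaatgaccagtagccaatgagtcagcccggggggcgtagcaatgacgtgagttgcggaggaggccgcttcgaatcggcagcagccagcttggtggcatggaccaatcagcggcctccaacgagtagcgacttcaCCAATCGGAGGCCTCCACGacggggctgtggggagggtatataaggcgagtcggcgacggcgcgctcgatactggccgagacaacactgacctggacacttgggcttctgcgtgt
Dnajb1 (chr8:83607925-83608224, plus strand): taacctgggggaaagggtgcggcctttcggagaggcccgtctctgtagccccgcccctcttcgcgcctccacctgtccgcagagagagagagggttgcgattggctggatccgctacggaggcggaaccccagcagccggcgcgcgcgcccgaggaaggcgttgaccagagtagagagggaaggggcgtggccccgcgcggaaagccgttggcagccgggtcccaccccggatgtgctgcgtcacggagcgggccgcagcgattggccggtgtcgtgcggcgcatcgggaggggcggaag

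The Hspa1a window held 1 GAANNTTC pair, 104 bases before the start. The Hspa1b window differed from it at 4 of 300 bases and held the same pair at the same distance. Hsph1, Hspe1 and 1 of the Hspd1 windows held at least 3 alternating units (GAANNTTCNNGAA or TTCNNGAANNTTC). Hsph1 had 1 match to this motif, and Hspe1 and that Hspd1 window had 2 overlapping matches each. The motif was in 0.603% of 32851 windows of 27025 genes, whereas single pairs were common (7.86% for GAANNTTC and 8.52% for TTCNNGAA). In the printed Hsph1 window the 3 units lie after the annotated start, and a single pair lies 33 bases before it. In Hspe1 the units begin 89 bases before the start. Hspd1 and Hspe1 lie head to head and overlap at their 5′ ends, and a window of each shared 285 bases. Hspa5 held the endoplasmic reticulum stress element 65 bases before its start, a motif in 0.119% of windows. Neither Dnajb1 window held any of these letters, which says nothing about sites elsewhere. The windows of Hspa1a and Hspa1b are nearly the same, but their transcripts can be told apart: 1419 of 2878 stretches of 90 bases in Hspa1a (49.3%) were also in Hspa1b, and 0 of 411 in the last 500 bases, where 3′ libraries take most reads. Where in the transcripts these reads fell was not analysed here.

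Within the LSM library the inducible HSP70 genes were highest in the C1q class and lowest in basophil and mast cell-like cells. Hspa1a (chromosome 17, 34969190 to 34972156, minus strand) was at 1725 CPM (1488 to 1990) in the C1q class, 793 in mature dendritic cell-like, 618 in cDC2-like, 616 in nonclassical monocyte-like, 423 in cDC1-like and 294 in progenitor-like cells. It was at 181 CPM in plasmacytoid dendritic cell-like, 179 in lymphocyte-like, 150 in plasma cell-like and 38.0 (17.4 to 72.2) in basophil and mast cell-like cells. The C1q class stood 2.18-fold above the next, and the step from plasma cell-like to basophil and mast cell-like cells was 3.94-fold. Of the 9 neighbouring pairs in this order, 6 differed beyond counting error. cDC2-like against nonclassical monocyte-like, plasmacytoid dendritic cell-like against lymphocyte-like and lymphocyte-like against plasma cell-like cells did not.

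Hspa1b (chromosome 17, 34956436 to 34959238, minus strand) followed nearly the same order. It was at 1123 CPM in the C1q class, 710 in mature dendritic cell-like, 591 in nonclassical monocyte-like, 537 in cDC2-like, 440 in cDC1-like, 318 in progenitor-like and 199 in plasmacytoid dendritic cell-like cells. Plasma cell-like cells had 174, lymphocyte-like cells 156, and basophil and mast cell-like cells 16.9 CPM from 4 UMIs. The summed level of both genes, called the HSP70 pair below, ran from 55.0 CPM (29.3 to 94.0; 13 UMIs) in basophil and mast cell-like cells to 2848 (2541 to 3182) in the C1q class, a 51.8-fold range (29.9 to 98.4). Across the 14 combinations of class and library with at least 30 cells, Hspa1a and Hspa1b levels correlated at r = 0.95 on the log2(CPM + 5) scale, a description over points that share libraries and depth.

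Dnajb1 (chromosome 8, 83608193 to 83612653, plus strand) had another order. Its level was 934 CPM (815 to 1066) in basophil and mast cell-like cells, where the HSP70 pair was lowest, and 3.25-fold lower, 288 CPM, in the next class, progenitor-like cells. The remaining LSM classes lay between 83.4 CPM in cDC1-like and 199 CPM in lymphocyte-like cells, with 164 in plasmacytoid dendritic cell-like, 140 in plasma cell-like, 113 in nonclassical monocyte-like, 104 in cDC2-like, 100 in C1q class and 94.1 in mature dendritic cell-like cells. The range was 11.2-fold (8.92 to 14.1), and only the 2 steps below basophil and mast cell-like and below progenitor-like cells, of 9, differed beyond counting error. Per UMI of the HSP70 pair there were 17.0 Dnajb1 UMIs (9.74 to 32.4) in basophil and mast cell-like cells and 0.0353 (0.0174 to 0.0640) in the C1q class. Over the 14 points Dnajb1 correlated with Hspa1a at r = -0.83 and with Hspa1b at r = -0.88.

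Hsph1 (chromosome 5, 149614287 to 149636376, minus strand) was the least counted of the 10, with 436 UMIs in the LSM and 158 in the CD122+CD49a+ library. Its LSM levels ran from 12.2 CPM in mature dendritic cell-like to 51.2 CPM in lymphocyte-like cells, around a class median of 32.3 CPM. None of the 9 neighbouring steps in its order was beyond counting error, and too few UMIs are expected in the C1q class for it to enter the count of ranges.

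**Figure D1:**
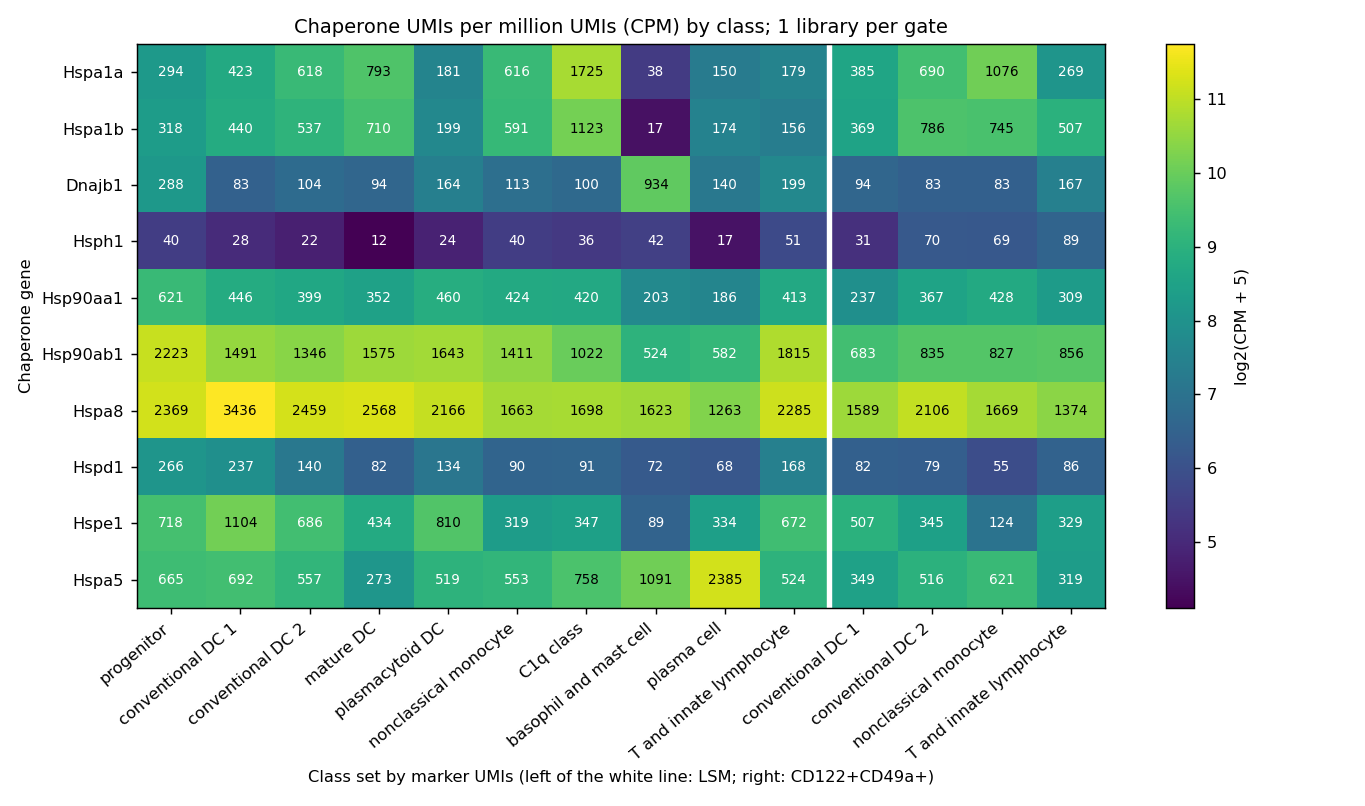
Heat map of the level of each of the 10 chaperones (rows; printed in CPM, coloured by log2(CPM + 5)) in the classes of at least 30 cells (columns), LSM left and CD122+CD49a+ right of the white line. Hspa1a and Hspa1b are lowest in basophil and mast cell-like cells, at 38.0 and 16.9 CPM, where Dnajb1 is highest, at 934 CPM.

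The constitutive genes varied less than the HSP70 pair over the LSM classes. Hspa8 (chromosome 9, 40800984 to 40810087, plus strand) was at 3436 CPM in cDC1-like cells, 2568 in mature dendritic cell-like, 2459 in cDC2-like, 2369 in progenitor-like, 2285 in lymphocyte-like and 2166 in plasmacytoid dendritic cell-like cells. It was at 1698 in the C1q class, 1663 in nonclassical monocyte-like, 1623 in basophil and mast cell-like and 1263 in plasma cell-like cells, a 2.72-fold range (2.51 to 2.95). Its low classes included the C1q class, where the inducible copies were highest. Hsp90ab1 (chromosome 17, 45567775 to 45573271, minus strand) ranged 4.24-fold (3.55 to 5.11), from 524 CPM in basophil and mast cell-like and 582 in plasma cell-like cells to 1815 in lymphocyte-like and 2223 in progenitor-like cells, with the other 6 classes between 1022 and 1643 CPM. Hsp90aa1 (chromosome 12, 110690605 to 110702728, minus strand) was likewise highest in progenitor-like cells, at 621 CPM, and low in plasma cell-like (186 CPM) and basophil and mast cell-like cells (203 CPM). It correlated with Hsp90ab1 over the 14 points at r = 0.85, against 0.49 with Hspa1a.

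Inducible UMIs per constitutive UMI give a ratio within the same cells that does not depend on how libraries are scaled. It was 1.10 (0.935 to 1.29) in the C1q class, 0.480 in basophil and mast cell-like, 0.442 in nonclassical monocyte-like, 0.388 in mature dendritic cell-like, 0.337 in cDC2-like and 0.261 in plasma cell-like cells. It was 0.205 in progenitor-like, 0.198 in cDC1-like, 0.149 in plasmacytoid dendritic cell-like and 0.143 (0.123 to 0.166) in lymphocyte-like cells. The second place of basophil and mast cell-like cells rested on Dnajb1, since 221 of their 244 inducible UMIs were of this gene. The 7.68-fold range across classes fell to 3.12 where cells needed 1000 detected genes and to 3.34 where a class needed 1 more marker, because the C1q class then held 19 and 12 cells, under the minimum of 30. Basophil and mast cell-like cells also fell under it with 1000 genes, at 8 cells. The range was 40.9 with Hspa1a and Hspa1b alone.

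The mitochondrial pair was highest in cDC1-like and progenitor-like cells. Hspd1 (chromosome 1, 55077835 to 55088243, minus strand) was at 266 CPM in progenitor-like, 237 in cDC1-like and 168 in lymphocyte-like cells and between 68.2 and 140 CPM in the other 7 classes. Hspe1 (chromosome 1, 55088132 to 55091307, plus strand) was at 1104 CPM in cDC1-like, 810 in plasmacytoid dendritic cell-like and 718 in progenitor-like cells, with 88.8 CPM in basophil and mast cell-like cells as the lowest, a 12.4-fold range (8.11 to 20.1). The number of Hspe1 UMIs per Hspd1 UMI was nearly the same in both libraries, 4.48 (4.30 to 4.68) and 4.45 (3.80 to 5.24), but ranged over LSM classes from 1.24 (0.621 to 2.49) in basophil and mast cell-like to 6.06 (5.22 to 7.06) in plasmacytoid dendritic cell-like cells.

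Hspa5 (chromosome 2, 34771970 to 34777547, plus strand) was highest in plasma cells, whose antibody secretion passes through the compartment it serves. Its level was 2385 CPM (2255 to 2520) in plasma cell-like cells, all 83 of which held an Hspa5 UMI, 1091 (962 to 1232) in basophil and mast cell-like cells and 758 in the C1q class. cDC1-like cells had 692 CPM, progenitor-like 665, cDC2-like 557, nonclassical monocyte-like 553, lymphocyte-like 524, plasmacytoid dendritic cell-like 519 and mature dendritic cell-like cells 273 CPM. The highest class was 2.19-fold above the next and 8.72-fold (7.60 to 10.0) above the lowest. In these plasma cell-like cells the cytosolic Hspa8 and Hsp90aa1 had their lowest LSM levels. Over the LSM classes, 6 of the 9 chaperones with enough UMIs had a highest level at least 4-fold above the lowest. Among all 1287 genes with enough UMIs 48.7% did, with a median log2 range of 1.95 against 3.12 for the 9.

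To compare how many cells held a UMI, cells were thinned to 1500 UMIs each, leaving out 3.51% of LSM and 52.1% of CD122+CD49a+ cells. A UMI of the HSP70 pair was then found in 77.1% of C1q class cells, 60.6% of cDC2-like, 60.5% of nonclassical monocyte-like, 59.8% of mature dendritic cell-like and 55.1% of cDC1-like cells of the LSM library. The share was 34.0% in progenitor-like, 24.4% in plasmacytoid dendritic cell-like, 21.7% in lymphocyte-like, 18.3% in plasma cell-like and 5.10% (1.68 to 11.5) in basophil and mast cell-like cells. Whether free RNA of these genes in the droplets gave the last value was not tested. The CD122+CD49a+ library had no basophil and mast cell-like class of 30 cells. Unthinned, the same classes ranged from 4.31% in basophil and mast cell-like cells, at a median of 1918 UMIs, to 90.2% in the C1q class, at 2287. Dnajb1 was found in 51.0% of thinned basophil and mast cell-like and 34.0% of progenitor-like cells, against 8.98% of cDC1-like cells.

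The HSP70 pair was unevenly spread among cells. The 10% of LSM cells with the most pair UMIs held 52.1% of them after thinning, and in CD122+CD49a+ lymphocyte-like cells the top 10% held 61.8%, with up to 30 pair UMIs in a single cell of 1500. At least 5 pair UMIs were found in 34.3% of C1q class, 18.6% of mature dendritic cell-like and 12.4% of cDC2-like cells of the LSM library.

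**Figure D2:**
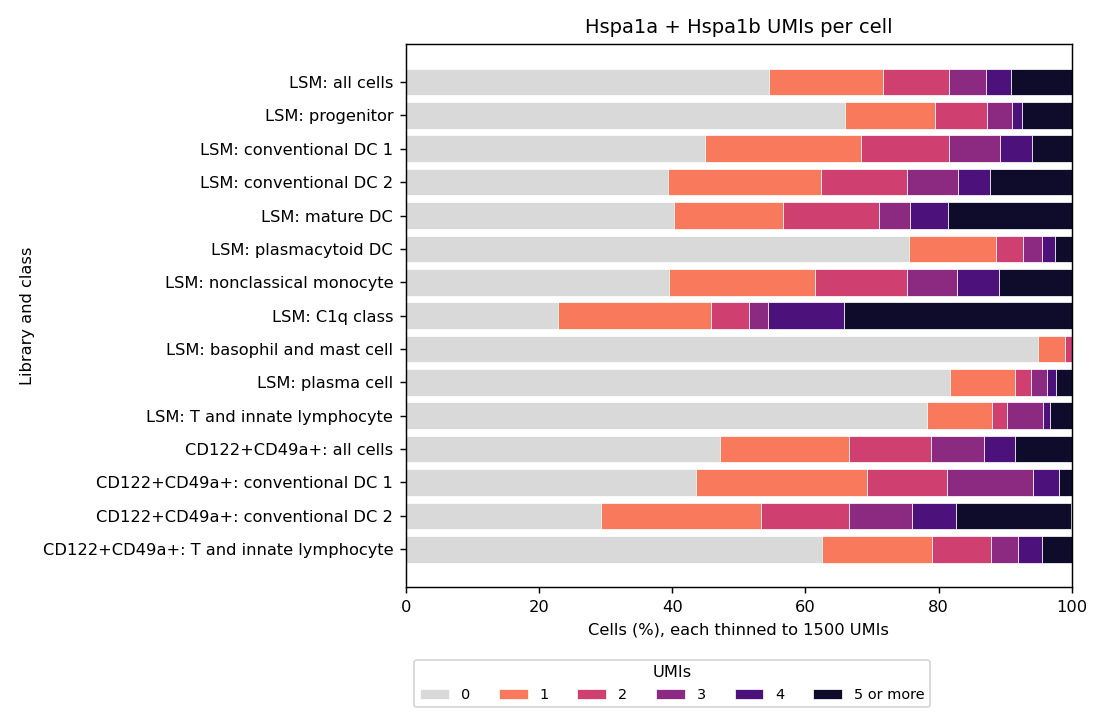
Stacked bars of the share of cells (percent) by number of UMIs of Hspa1a and Hspa1b after thinning each cell to 1500 UMIs, for classes of both libraries. At least 1 such UMI was found in 77.1% of C1q class cells and in 5.10% of basophil and mast cell-like cells of the LSM library.

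Between the libraries, the constitutive genes were higher in LSM cells, and the inducible genes were not, or less so. Hspa8 was at 2532 CPM in the LSM and 1575 CPM in the CD122+CD49a+ library, a ratio of 1.61 (1.55 to 1.66), and Hsp90ab1 at 1551 and 828 CPM, a ratio of 1.87 (1.79 to 1.96). Hspa1a was at 450 and 441 CPM, a ratio of 1.02 (0.956 to 1.09), so its levels did not differ beyond counting error. Hspa1b was at 427 and 563 CPM, a ratio of 0.758 (0.714 to 0.804), and Hsph1, at 26.9 and 67.2 CPM, was 2.49-fold (2.07 to 3.0) higher in CD122+CD49a+ cells. Dnajb1 was higher in the LSM library beyond counting error, at 157 against 131 CPM (1.2, 1.06 to 1.35). With TMM scaling, which assumes that most genes have like levels, Hspa1a over all cells was also higher in the LSM library (1.38, 1.30 to 1.48). Dnajb1 was then at 1.62 (1.44 to 1.83), and Hsph1 was still lower, at 0.543 (0.452 to 0.656).

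The other members had ratios near those of the constitutive genes. Hsp90aa1 was at 445 and 294 CPM (1.51, 1.40 to 1.64), Hspa5 at 627 and 379 (1.65, 1.54 to 1.77), Hspd1 at 165 and 80.4 (2.05, 1.77 to 2.39) and Hspe1 at 738 and 358 (2.06, 1.92 to 2.21). At a 2-fold limit, 2 of the 10 chaperones were higher in the LSM library, beside 9.67% of 11411 genes with enough UMIs, and 1 was higher in the CD122+CD49a+ library, beside 26.4%. The median log2 ratio was 0.64 over the 10 and -0.31 over all genes. With TMM scaling these counts became 6, beside 20.2%, and 0, beside 14.0%: Hspa8 (2.18), Hsp90ab1 (2.54), Hspa5 (2.24) and Hsp90aa1 (2.05) joined Hspd1 and Hspe1, and the medians were 1.08 and 0.13.

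The sum of the inducible genes was at 1061 CPM in the LSM and 1203 CPM in the CD122+CD49a+ library (ratio 0.882, 0.848 to 0.918), and that of the constitutive genes at 4084 and 2403 CPM (1.70, 1.65 to 1.75). With TMM scaling, which moves the median log2 ratio of all genes from -0.31 to 0.13, the inducible ratio turned to 1.2, Hspa1b to 1.03 and the constitutive ratio to 2.3, and the genes past 2-fold that were higher in the LSM library went from 26.8% to 59.0%. The inducible ratio also turned, to 1.04 (0.975 to 1.12), where cells needed 1000 detected genes. The ratio that needs no scaling was 0.260 inducible UMIs per constitutive UMI (0.255 to 0.264) in the LSM and 0.50 (0.478 to 0.524) in the CD122+CD49a+ library. With at least 1000 genes per cell it was 0.25 and 0.388.

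The libraries hold different cells, so the 4 classes present in both were compared, which does not make their cells alike. Among cDC1-like cells Xcr1 was found in 40.1% of LSM and 80.8% of CD122+CD49a+ cells, and Cadm1 in 8.98% and 51.9%. Among nonclassical monocyte-like cells Fabp4 was found in 54.6% and 12.5% and Cd300e in 55.2% and 14.6%. Inducible UMIs per constitutive UMI were higher in the CD122+CD49a+ library in each: 0.198 against 0.387 in cDC1-like, 0.337 against 0.554 in cDC2-like, 0.442 against 0.790 in nonclassical monocyte-like and 0.143 against 0.462 (0.431 to 0.495) in lymphocyte-like cells, LSM first. Median UMIs per cell were lower in the CD122+CD49a+ library in these classes, at 3588 against 8220, 2284 against 5927, 1356 against 2432 and 1286 against 2581, and gate, depth and the make-up of a class cannot be told apart with 1 library each.

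Lymphocyte-like cells had the lowest LSM over CD122+CD49a+ ratio of the HSP70 pair among these 4 classes, 0.433 (0.354 to 0.525). Hspa1b was at 156 CPM in the LSM and 507 CPM in the CD122+CD49a+ library, 3.24-fold higher (2.45 to 4.35) in the latter. Hspa1a was at 179 and 269 CPM (1.5-fold, 1.14 to 2.0) and Hsph1 at 51.2 and 89.0 CPM (1.74-fold, 1.05 to 3.05), while Dnajb1, at 199 and 167 CPM, did not differ beyond counting error. On the LSM side were Hspa8 (2285 and 1374 CPM), Hsp90ab1 (1815 and 856), Hspe1 (672 and 329), Hspd1 (168 and 85.5), Hspa5 (524 and 319) and Hsp90aa1 (413 and 309), with ratios from 1.33 to 2.12. At 2-fold, 2 of 10 were higher in LSM, beside 6.73% of 4088 genes, and 1 was higher in CD122+CD49a+, beside 23.8%. The median log2 ratio was 0.57 over the 10 and -0.20 over all these genes. With TMM scaling 3 of 10, beside 9.15%, and 1, beside 20.7%, passed. Where cells needed 1000 detected genes, Hsp90aa1 turned to 0.789 (0.595 to 1.05) and Hspd1 to 0.934 (0.593 to 1.48), LSM over CD122+CD49a+, neither beyond counting error, Hspa1a turned to 1.77 (1.04 to 3.11), and Dnajb1 was at 1.97 (1.12 to 3.62).

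Hspa1b outnumbered Hspa1a in the CD122+CD49a+ lymphocyte-like cells, with 1.89 Hspa1b UMIs per Hspa1a UMI (1.64 to 2.17) against 0.873 (0.597 to 1.27) in the LSM ones and 0.948 (0.917 to 0.980) over all LSM cells. The C1q class had 0.651 (0.514 to 0.821). The inducible sum in lymphocyte-like cells, 586 against 1031 CPM (0.569, 0.488 to 0.660), depended on which cells were taken. With at least 1000 detected genes, which left 51 and 49 cells, it was 1.08 (0.829 to 1.41), and the inducible UMIs per constitutive UMI were 0.127 (0.105 to 0.152) and 0.186 (0.148 to 0.230). With at least 1500 UMIs per cell it was 0.724, and the HSP70 pair was at 337 and 592 CPM.

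A CD8 transcript was found in 46.7% of LSM and 16.7% of CD122+CD49a+ lymphocyte-like cells. In cells without one the HSP70 pair was at 304 and 872 CPM, 2.87-fold (2.25 to 3.71) higher in CD122+CD49a+. In cells with one it was at 399 and 354 CPM (LSM over CD122+CD49a+ 1.13, 0.767 to 1.65), and the inducible sum turned to 1.28 (0.951 to 1.72). The constitutive sum was higher in the LSM library in both, by 1.72 without and 2.51 with a CD8 transcript. Since these splits were made after the data were seen, and absence of a UMI in a shallow cell does not show absence of CD8, they are descriptions.

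The dendritic cell and monocyte classes differed gene by gene. In cDC1-like cells Hspa1a (423 and 385 CPM), Hspa1b (440 and 369), Dnajb1 (83.4 and 94.2) and Hsph1 (28.0 and 30.6) did not differ beyond counting error, whereas Hspa8 (3436 and 1589), Hsp90ab1 (1491 and 683), Hspe1 (1104 and 507) and Hspd1 (237 and 81.5) were over 2-fold higher in LSM. These 4 of 10 stood beside 15.6% of 3389 genes, and 0 of 10 beside 9.80% the other way, with median log2 ratios of 0.95 and 0.22. With TMM scaling 6 of 10 passed, beside 23.1%, and 0 beside 6.55%, and Hspa1a (1.27, 1.06 to 1.53) and Hspa1b (1.37, 1.15 to 1.66) were higher in LSM beyond counting error. In cDC2-like cells Hspa1b was at 537 and 786 CPM, 1.47-fold (1.25 to 1.71) higher in the latter library, and no chaperone of 9 passed 2-fold either way, beside 14.5% and 11.6% of 2242 genes, with a median of 0.22 for both. In nonclassical monocyte-like cells Hspa1a was at 616 and 1076 CPM, likewise 1.75-fold (1.36 to 2.21) higher. There 1 of 7, Hspe1 (319 and 124 CPM, from 9 UMIs), was over 2-fold higher in LSM, beside 19.1% of 950 genes, and 0 beside 8.84% the other way, with medians of -0.01 and 0.28.

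**Figure D3:**
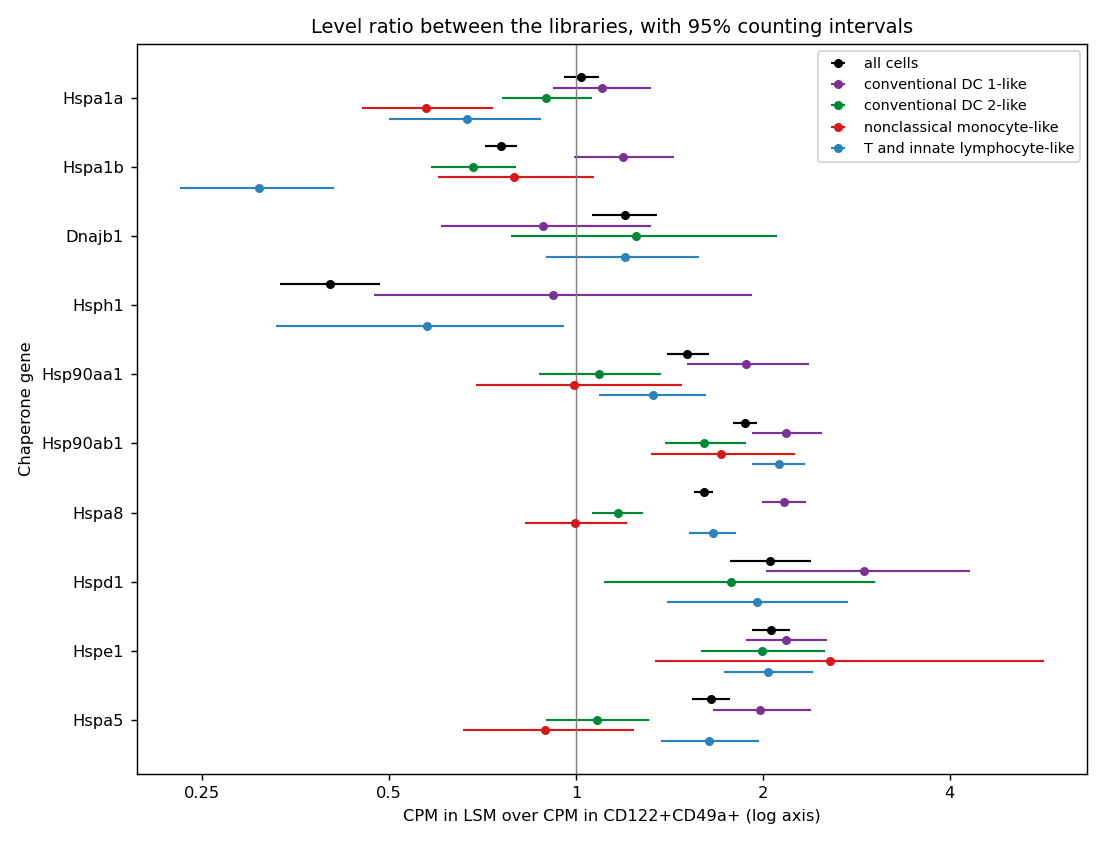
Ratio of LSM to CD122+CD49a+ level (log axis) with 95% counting intervals for each chaperone, over all cells and within the shared classes. Over all cells Hsph1 lies lowest, at 0.401, and Hspe1 highest, at 2.06.

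After thinning, a UMI of any inducible gene was found in 57.0% of LSM and 60.5% of CD122+CD49a+ cells, against 78.4% and 65.2% without thinning. For the HSP70 pair the thinned shares were 45.4% (43.6 to 47.3) and 52.8% (48.7 to 56.9). In lymphocyte-like cells they were 21.7% (13.8 to 31.6) and 37.5% (31.5 to 43.8). Thinning left out 14.0% of LSM and 66.8% of CD122+CD49a+ lymphocyte-like cells, so these shares cover only the deeper cells of the class.

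The level of the inducible HSP70 genes also went with depth. Splitting each class at its median UMI count, the pair was lower in the deeper cells beyond counting error in 8 of 14 classes by library and higher in 1, plasma cell-like cells. It was at 1091 CPM in deeper and 2205 in shallower mature dendritic cell-like cells, and at 629 and 1055 in CD122+CD49a+ lymphocyte-like cells. The constitutive sum was higher in the deeper cells in 8 of 14 and lower in 3. Barcodes under 500 genes, which were left out of the values above, held the pair at 2211 CPM (1769 to 2731) in the LSM and 1828 CPM (1673 to 1993) in the CD122+CD49a+ library, with median mitochondrial shares of 5.82% and 4.95%. The part of depth in the differences between libraries was not tested beyond the alternatives above.

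Immediate early genes are a second known readout of handling and activation, and 13 of them were summed. Between libraries the sum was at 9336 CPM in the LSM and 3950 CPM in the CD122+CD49a+ library (2.36, 2.31 to 2.41). The HSP70 pair per immediate early UMI was 0.0939 and 0.254. By class the immediate early sum was 42077 CPM in basophil and mast cell-like cells, 13128 in nonclassical monocyte-like, 12291 in progenitor-like, 12141 in the C1q class, 9444 in lymphocyte-like and 9064 in cDC2-like cells. It was 7115 in plasmacytoid dendritic cell-like, 6769 in mature dendritic cell-like, 6414 in plasma cell-like and 6136 CPM in cDC1-like cells. The class with the highest immediate early sum was thus the one with the lowest HSP70 pair and the highest Dnajb1.

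Over the 10 LSM classes the correlation with the immediate early sum on the log2(CPM + 5) scale was -0.54 for the pair and 0.83 for Dnajb1. Both rested on basophil and mast cell-like cells: without them the values were 0.38 and 0.33 over 9 classes. These points share a library and differ in depth, and no p-value is attached.

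**Figure D4:**
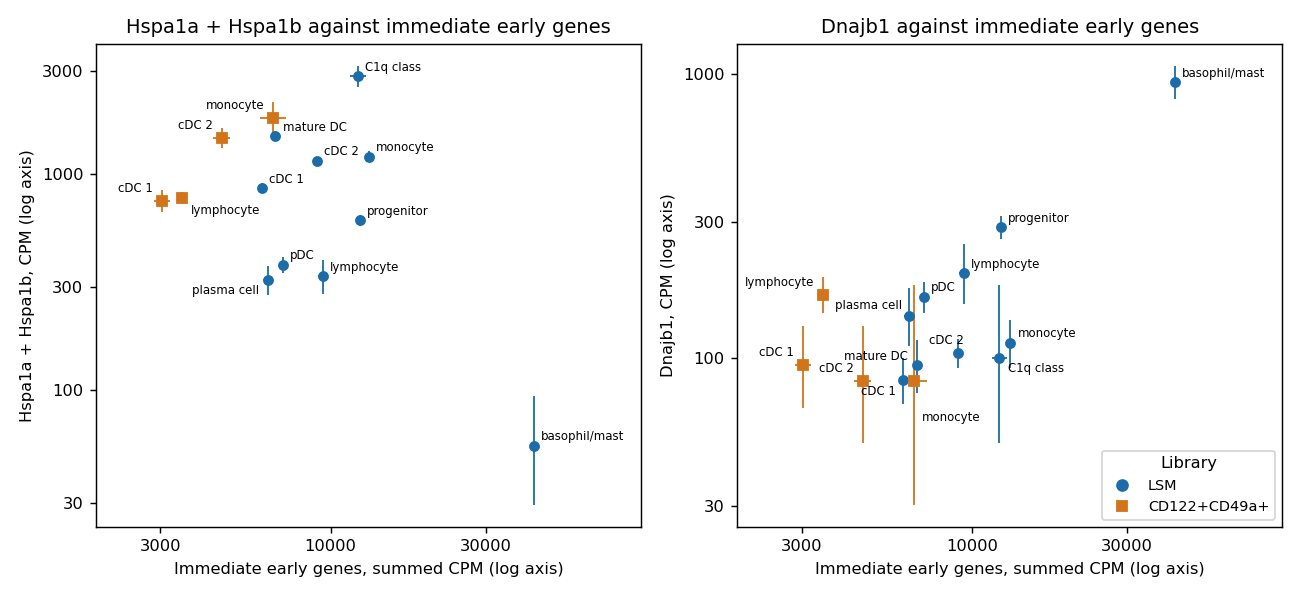
Level of the HSP70 pair and of Dnajb1 (CPM, log axis) against the summed level of 13 immediate early genes (CPM, log axis), each point a class of at least 30 cells in a library. Basophil and mast cell-like cells lie apart at 42077 CPM of immediate early genes, with 55.0 CPM of the pair and 934 CPM of Dnajb1.

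The readouts were also set side by side within classes. Cells of a class were split at their median immediate early UMI count after thinning to 1500 UMIs. The pair was higher in the upper cells beyond counting error in 8 of 12 classes by library and lower in 0, Dnajb1 was higher in 6 and lower in 0, and Hspa5 was higher in 7 and lower in 1. The constitutive sum was higher in 4 and lower in 4. Thinning does not match the original depth of the cells. In the split by depth above, the immediate early sum was itself lower in the deeper cells in 11 of 14 classes by library and higher in 2. The pair was lower there in 8 and higher in 1, and the part of depth in the immediate early split was not tested. Plasma cell-like cells had a pair UMI in 30.8% of upper against 6.98% of lower cells, a 4.04-fold difference in mean UMIs (1.89 to 9.61). This rests on few cells: 15 of the 82 held a pair UMI, and the top 10% held 85.7% of the pair UMIs. CD122+CD49a+ lymphocyte-like cells had a pair UMI in 45.9% against 29.4% (2.58-fold, 1.96 to 3.41). LSM lymphocyte-like cells had 22.2% and 21.3% (0.858, 0.472 to 1.54), and there Dnajb1 differed instead, with 28.9% against 10.6%. In basophil and mast cell-like cells Dnajb1 was found in 68.8% of upper and 34.0% of lower cells (2.86-fold, 1.96 to 4.24), and the pair in 6.25% and 4.0%.

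Cells with at least 3 of 9 cycling markers, 96 in the LSM and 52 in the CD122+CD49a+ library, had higher Hsp90aa1 and Hspd1 levels than the other cells. Hsp90aa1 was at 886 CPM in cycling and 419 CPM in other LSM cells (2.12, 1.97 to 2.28), and at 520 and 269 CPM in the CD122+CD49a+ library (1.93, 1.58 to 2.35). Hspd1 was at 323 and 155 CPM (2.08, 1.84 to 2.35) and at 138 and 73.8 CPM (1.87, 1.25 to 2.74). Immediate early genes were lower in cycling cells, by ratios of 0.539 and 0.494. The same held within progenitor-like cells of the LSM library (22 cycling cells; Hsp90aa1 2.10, Hspd1 2.36) and lymphocyte-like cells of the CD122+CD49a+ library (32 cycling cells; Hsp90aa1 2.71, Hspd1 2.44). The median depth was 9578 UMIs in cycling against 5013 in other LSM cells and 4068 against 1429 in the CD122+CD49a+ library. Deeper over shallower LSM progenitor-like cells had ratios of 1.58 (1.38 to 1.82) for Hsp90aa1, 2.20 (1.74 to 2.80) for Hspd1 and 0.557 for immediate early genes. In CD122+CD49a+ lymphocyte-like cells these were 0.900 (0.721 to 1.13), 1.29 (0.820 to 2.08) and 0.614. The part of depth in the cycling ratios was not tested.

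Genes of the same pathways were read from fixed lists, each as LSM over CD122+CD49a+ over all cells, with the 2-fold limit and the shares of all genes given above (9.67% and 26.4%). Counts are of values past 2-fold, whether or not the interval holds 1. The lists overlap, so their counts are not of separate genes. The HSF1 list holds Hsp90aa1, itself among the chaperones described here, and shares Ahsa1, Fkbp4 and Stip1 with the co-chaperone list. Ahsa1 is past the limit in both counts. Of 18 members with at least 20 UMIs among HSF1 and its further targets, 5 were past it on the LSM side and 0 on the other, with a median log2 ratio of 0.30. Of the 5, Cryab (4.21, 0.699 to 172, from 29 and 1 UMIs) and Serpinh1 (3.20, 0.834 to 27.2, from 44 and 2), named here after their values were seen, did not differ beyond counting error. Hsf1 itself was at 10.4 and 17.4 CPM (0.599, 0.424 to 0.864) and Bag3, a co-chaperone of HSP70 induced by HSF1, at 3.83 and 5.95 CPM (0.643, 0.356 to 1.24). The ubiquitin gene Ubb was at 3378 and 1593 CPM (2.12, 2.05 to 2.19). Small heat shock protein gene Hspb1 had a ratio of 2.35 (1.04 to 6.56) from 97 and 6 UMIs. In basophil and mast cell-like cells Ubb reached 18397 CPM, against 2407 in cDC1-like cells, so this class was high in Ubb and Dnajb1 with the HSP70 pair at 55.0 CPM.

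Of 16 cytosolic co-chaperones, 3 were past 2-fold on the LSM and 1 on the CD122+CD49a+ side (median log2 ratio 0.69). Dnajc7, a co-chaperone that binds HSP70 and HSP90, was at 186 and 82.9 CPM (2.25, 1.94 to 2.61) and reached 690 CPM in plasmacytoid dendritic cell-like cells. St13, which binds HSP70, had a ratio of 2.20 (1.92 to 2.53), the HSP90 co-chaperone Ptges3 1.65 (1.47 to 1.86) and the chaperonin subunit Cct5 1.67 (1.48 to 1.89). Fkbp5, an HSP90-bound immunophilin known as a glucocorticoid target, was at 7.97 and 18.7 CPM (0.426, 0.300 to 0.614), and the HSP70-binding Hspbp1 had a ratio of 0.901 (0.704 to 1.17). Of 8 genes of mitochondrial protein quality control, 0 were past it on the LSM side and 1, the protease Lonp1, on the other, at 8.90 and 23.4 CPM (median log2 ratio 0.12). The mitochondrial HSP70 gene Hspa9 was at 47.0 and 57.4 CPM (0.818, 0.680 to 0.990), against its exchange factor Grpel1 at 128 and 69.7 CPM (1.83, 1.56 to 2.16). The protease subunits Clpp and Clpx had ratios of 1.27 (0.993 to 1.64) and 1.35 (0.884 to 2.15). Hspd1 (2.05, 1.77 to 2.39) and Hspe1 (2.06, 1.92 to 2.21) had higher ratios than every gene of this list. Their intervals overlapped those of Grpel1 and Clpx.

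Of 18 genes of the endoplasmic reticulum, 7 were past 2-fold on the LSM and 1 on the CD122+CD49a+ side (median log2 ratio 0.61). Plasma cell-like cells were the highest LSM class for all of these genes but Atf4 and Ddit3. The CD122+CD49a+ library had no such class of 30 cells, and the part of plasma cell-like cells in these ratios was not tested. Hsp90b1, the HSP90 of this compartment, was at 4489 CPM in plasma cell-like and 133 CPM in mature dendritic cell-like cells, the same extremes as for Hspa5. Manf, a stress-induced protein that binds BiP, reached 2762 CPM in plasma cell-like cells and had a ratio between libraries of 2.95 (2.60 to 3.36). Dnajb9 and Sdf2l1, both partners of BiP, had 4.52 (3.01 to 7.09) and 4.05 (3.45 to 4.80), whereas P4hb, a disulphide isomerase, had 0.489 (0.433 to 0.554) and Hyou1, the HSP110 of the compartment, 0.546 (0.435 to 0.692). The isomerase Pdia3 had 1.47 (1.35 to 1.61). Among the 13 immediate early genes 7 were past 2-fold on the LSM and 0 on the other side (median 1.10), led by Jun at 1532 and 297 CPM (5.16, 4.79 to 5.57) and Ier2 at 751 and 220 (3.41, 3.12 to 3.73). Fosb and Btg2 had ratios of 0.873 (0.791 to 0.964) and 0.908 (0.845 to 0.976), and the 2 others with the most UMIs, Jund and Junb, 2.76 and 2.31.

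With TMM scaling, where 20.2% and 14.0% of all genes passed, the numbers past 2-fold on the LSM side were 8 of 18 for HSF1 and its targets, 10 of 16 co-chaperones, 1 of 8 mitochondrial, 10 of 18 endoplasmic reticulum and 9 of 13 immediate early genes, and 0 of each list passed on the other side. Hsp90aa1 is among the 8, and Ahsa1 and Fkbp4 are counted both there and among the co-chaperones. The median log2 ratios of the lists were 0.73, 1.12, 0.56, 1.05 and 1.54. Of the genes named above, Hspbp1 (1.22, 0.954 to 1.58), Hspa9 (1.11, 0.922 to 1.34), Fosb (1.18, 1.07 to 1.31) and Btg2 (1.23, 1.14 to 1.32) then lay on the LSM side.

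Patterns most like those of the chaperones were sought among protein-coding genes with at least 200 UMIs, by Pearson correlation of log2(CPM + 5) over the 14 points. The 5 highest of 6458 candidates (6459 for Hspa5) are given. High values can arise from so wide a search over few points that share libraries and depth, so these are descriptions. For Hspa1a and Hspa1b these were Ensa (0.90), Rnpep (0.87), Epb41l2 (0.87), Exoc1 (0.86) and Ext1 (0.86). Hspa8 and Hsp90ab1 were most like Srsf3 (0.85), Npm1 (0.84), Rbmxl1 (0.84), Hat1 (0.83) and Hnrnpa1 (0.83). Hspd1 and Hspe1 were most like G3bp1, Snrpf, Snrpd1 and Ndufaf6 (0.93 each) and Rps2 (0.92). Hspa5 was most like Tmed10 (0.89), Ckap4 (0.88), Rab2a (0.83), Fkbp11 (0.82) and Cdc123 (0.82), all highest in plasma cell-like cells.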

How the data were processed

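The authors deposited raw UMI counts as 1 gene by cell matrix per library, and software version 3.0.1 stands in them per the file headers. Per the submitters' processing notes, the tools were STAR and Seurat 2.3.0 and the build GRCm38. The choice of barcodes in the matrices is not stated by any label or header. GENCODE M21 held 27645 of the 27998 gene identifiers (98.7%) and gave positions and gene types. Groups come from the labels. The chaperones, gene lists and markers were chosen with earlier results of these data known. Every chaperone is named, and of each list the 3 genes with the most UMIs and the 2 furthest to each library among those with at least 50 UMIs. A gene that this rule takes is left out of the text. Barcodes with at least 500 genes were kept. A cell needs 3 markers of a class, the class with the most wins, ties are mixed and fewer than 3 unassigned. Class results use at least 30 cells. No doublet caller was applied. Scrublet (scanpy 1.11.5) was an alternative that removed 79 LSM and 22 CD122+CD49a+ barcodes, the share expected at 0.8% per 1000 barcodes. CPM carry exact Poisson, ratios exact conditional and shares exact Clopper-Pearson 95% intervals. A count of 0 is set at a floor of 3 counts. Genes enter counts past a fold over all cells, gene lists included, with at least 20 UMIs over both libraries, and within classes with at least 10 UMIs expected in the smaller group. UMIs at transcript ends carry no length scaling. With 1 library per group no test across samples was possible. TMM factors came from edgeR 4.0.16 in R 4.3.3, and the rest was computed in Python 3.11.15 with numpy 2.4.6, scipy 1.17.1, pandas 2.3.3 and matplotlib 3.10.9. The procedures were tested on simulated data. Alternatives were filters, scalings, thinning depths and group definitions.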

Additional observations from a re-analysis of the deposited data

Results flagged for a closer look

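The LSM over CD122+CD49a+ ratio of the HSP70 pair (Hspa1a and Hspa1b) lay on different sides of 1 in different classes. It was 1.14 (1.01 to 1.30) in cDC1-like cells, against 0.782 (0.699 to 0.878) in cDC2-like, 0.663 (0.553 to 0.80) in nonclassical monocyte-like and 0.433 (0.354 to 0.525) in lymphocyte-like cells. Hspa1a in lymphocyte-like cells had a ratio of 2.10 (1.07 to 4.18) with a CD8 transcript and 0.578 (0.408 to 0.801) without one. Cycling over other cells, Hspa1a was at 1.96 (1.58 to 2.42) in LSM progenitor-like cells and at 0.435 (0.245 to 0.718) in CD122+CD49a+ lymphocyte-like cells. Hspa1b was at 1.45 (1.15 to 1.81) and 0.540 (0.376 to 0.754), and the pair at 1.69 (1.44 to 1.96) and 0.503 (0.374 to 0.665). Each was singled out because counting intervals lay on opposite sides of 1. The differences themselves were not tested, since each class comes from 1 library per gate.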

How the results depend on the processing

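With 1 library per gate, no spread between animals could be set beside any value, and depth limits the CD122+CD49a+ library most. Ratios are LSM over CD122+CD49a+. Cells with at least 1000 detected genes gave 1.04 for the inducible sum (0.882 in the report) and 1.62 for the constitutive sum (1.70) over all cells, and 1.08 and 1.58 in lymphocyte-like cells (0.569 and 1.84). There Hspa1a turned to 1.77, Hsp90aa1 to 0.789 and Hspd1 to 0.934. TMM scaling gave 1.2 and 2.3 over all cells, 1.03 for Hspa1b, 1.99 for the lymphocyte-like constitutive sum and 1.28 for the inducible sum in cDC1-like cells (1.11). Means of per-cell CPM gave 1.55 and 1.66 for the constitutive sum over all and lymphocyte-like cells, and removing predicted doublets gave 1.70 for the latter. Alternatives chosen after seeing the data were these. Keeping low-gene barcodes gave an inducible ratio of 0.812, and leaving out lymphocyte-like cells gave 0.786 and a constitutive ratio of 1.59. Lymphocyte-like cells of at least 1500 UMIs gave an inducible ratio of 0.724. Those without a CD8 transcript gave 0.467 and 1.72, and those with one 1.28 and 2.51, with Hspa1a at 2.10 and Hsph1 at 1.52. The range of inducible per constitutive UMIs over LSM classes, 7.68-fold, was 3.12 with 1000 genes (8 classes) and 3.34 with 1 more marker (9 classes), both with the C1q class under 30 cells and with nonclassical monocyte-like cells highest. It was 5.14 with Hsp90aa1 added and 40.9 with Hspa1a and Hspa1b alone. Thinning to 1000 UMIs, 2000 UMIs or none gave inducible shares of 47.3%, 63.5% and 78.4% in LSM cells and 51.3%, 69.1% and 65.2% in CD122+CD49a+ cells. The correlation of the HSP70 pair with immediate early genes, -0.54, became 0.38 without basophil and mast cell-like cells. Genes past 2-fold went from 4110 to 2650 at 100 UMIs or more, where fewer genes enter. For single chaperones between libraries, 212 of the other values stayed within the counting interval of the value reported and 52 moved outside it. A further 6 turned to the other side of 1 from a value that differed beyond counting error. For the sums, ratios, shares, counts and correlation, 36 alternatives stayed within the limits set for them, 26 moved outside and 5 turned in direction. The causes were not tested unless named. No paired analysis was possible because there is 1 library per group.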
